A study of Homo sapiens with 4 samples.

Results

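The genes described here belong by symbol to families of deubiquitinases, the proteases that remove ubiquitin from other proteins. They were measured in Hut78 cells with and without the compound CSH71. Whether each product is an active protease was not examined. Hut78 is an established human cell line of cutaneous T-cell lymphoma. Members were found by gene symbol: those beginning USP, OTU, UCH, JOSD, ATXN3 or MINDY in the forms that these gene families use, and ZRANB1, CYLD, TNFAIP3, BAP1, STAMBP and BRCC3. The rule matched 71 of 14884 genes with a symbol on the array. Of these, 64 were protein-coding genes of a deubiquitinase family: 48 USP, 8 OTU, 4 Josephin, 3 UCH and 1 JAMM. The remaining 7 symbols matched the rule but are not protein-coding deubiquitinase genes. They were 6 non-coding RNAs or pseudogenes (USP2-AS1, USP3-AS1, USP30-AS1, USP27X-DT, USP17L9P and USP32P1) and USP6NL, which encodes a GTPase-activating protein. TNFAIP3, OTULIN, BAP1, BRCC3, ZRANB1, the MINDY genes and the OTUB genes were not analysed here.

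Per the labels, 2 samples of Hut78 cells came from a 30 h exposure to 250 nM CSH71 and 2 were left untreated, all grown in the same serum-containing medium, with 1 whole-transcript array for each sample. The series title presents chemicals that target a lipid-binding domain in p38γ, a mitogen-activated protein kinase, and the design asks which transcripts lie downstream. Each group is thus 1 cell line at 1 dose and 1 time. Whether the duplicates were grown as separate cultures is not stated. The p-values therefore reflect the spread among these 4 samples alone, which may be technical.

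Ubiquitin is a small protein that enzymes attach to other proteins in cascades of activating (E1), conjugating (E2) and ligating (E3) steps, and deubiquitinases reverse the attachment. Most are cysteine proteases, grouped by the fold of the catalytic domain into the USP, OTU, UCH, Josephin and MINDY families, and the JAMM family are zinc metalloproteases. In T cells several of them, CYLD among them, restrain the ubiquitin chains that carry signals from the TNF receptor and the T-cell receptor to NF-κB.

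Values are linear probe-set intensities as deposited, with 1 probe set per gene, the brightest. Array medians over 53617 probe sets were 73.6 and 81.1 for CSH71 and 77.5 and 71.5 for untreated replicates 1 and 2. The table carries no detection call or background level, so no gene is called present or absent. Precision is limited by having only 4 arrays. CSH71 replicate 2 stood apart in a small number of high probe sets. Of 53617, 79 were over 4-fold above the highest of the other arrays there. That count was 1 on CSH71 replicate 1, 0 on untreated replicate 1 and 0 on untreated replicate 2. By gene, the count on CSH71 replicate 2 was 3. Over all genes, the median absolute log2 differences of CSH71 replicate 2 from the other arrays were 0.17, 0.19 and 0.24. Those of untreated replicate 2 were 0.18, 0.22 and 0.24. Of the T-cell markers 10 of 14 were measured, with CD3D, CD3E and CD3G not analysed here, and their intensities summed to 9031 and 8595 in CSH71-treated against 8942 and 9179 in untreated cells. Sums were 600 and 710 against 822 and 707 for 3 B-cell markers, 614 and 702 against 779 and 594 for 7 monocyte markers, and 2551 and 2888 against 2813 and 2675 for 4 epithelial markers. EPCAM, at 1943 and 2169 with CSH71 and 2087 and 2036 without, made up most of the epithelial sums. None of these markers was at 0 on any array (lowest 26.5), and none passed the test. Some lay below the array medians, such as LYZ at 26.5 and 45.5 with CSH71 and 28.4 and 26.9 without.

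Among the 64 deubiquitinase genes, JOSD1 had the smallest p, with higher signal in CSH71-treated cells (log2 fold change 1.22), and it did not pass the test across all genes. Of the 64, 57 lay within 0.3 of 0 on the log2 scale, against 12252 of all 14884 genes. Among genes brighter than the median gene these were 47 of 48 members and 6662 of 7442 genes. Of the 64, 32 were above 0 and 32 below. The comparison used limma on log2(intensity + 16), with p-values adjusted by the Benjamini-Hochberg method over all 14884 genes. The added constant makes the fold changes of dim genes smaller than they would be on the raw scale. In this bulk measurement, fewer cells of a type and less RNA per cell cannot be told apart.

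Over all families, 0 of 64 members passed at a limma adjusted p under 0.05, where 7 of 14884 genes did (0.0470%). At an unadjusted p under 0.05 there were 2 members, JOSD1 higher and OTUD6A lower, which is 3.12% of members against 5.11% of all genes. A difference of at least 2-fold was likewise seen for 2 members, JOSD1 and USP17L12, against 0.235% of all genes, and 1 of these rests on 1 array. Both treated arrays lay above both untreated arrays for 10 members (15.6%, against 15.0% of all genes) and below them for 11 (17.2%, against 16.6%). Those shares are near the background. The members' median log2 fold change was 0.00, with 32 above and 32 below 0, against -0.01 over all genes. For 61 of the 64 the 95% interval lay wholly within 2-fold either way on the log2(intensity + 16) scale (95.3%, against 93.7% of all genes). The exceptions were JOSD1, USP17L12 and USP17L15. For dim members the added constant narrows the interval, so this count holds for that scale only. With 1 added in place of 16, ATXN3L had -0.48 ± 0.53 and OTUD6A -0.64 ± 0.24 (SE).

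**Figure D1:**
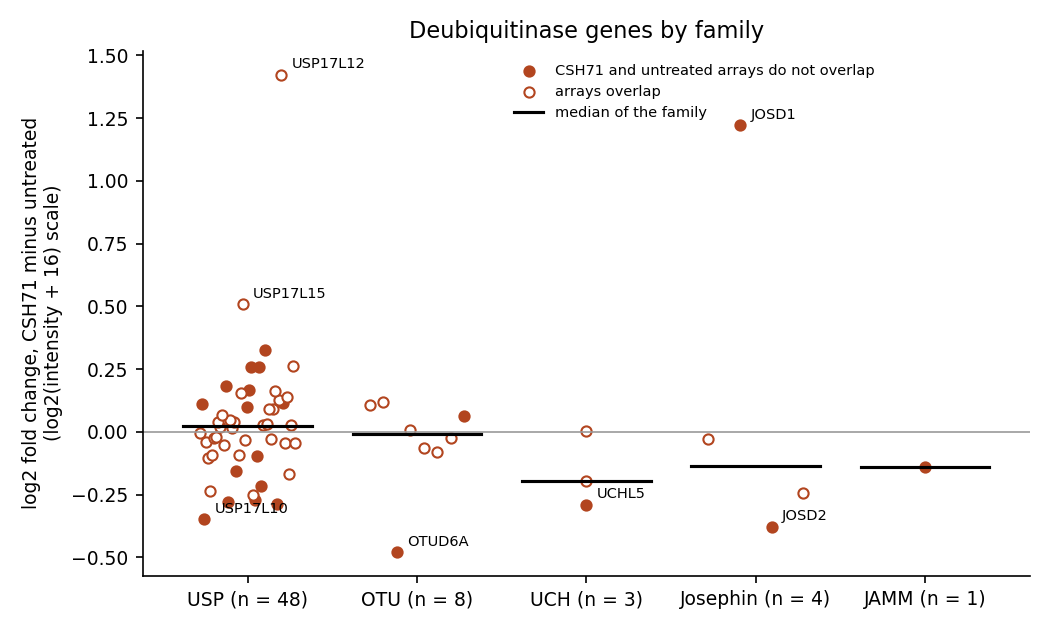
Log2 fold change (CSH71 minus untreated, vertical axis) of each of the 64 genes by family. Filled points are genes whose 2 CSH71 and 2 untreated arrays do not overlap, and black lines are family medians; JOSD1 at 1.22 and USP17L12 at 1.42 lie far from the rest, and the arrays of USP17L12 overlap.

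JOSD1 encodes a Josephin-domain deubiquitinase that associates with the plasma membrane and is active when it is itself ubiquitinated. Its intensity was 1667 and 1613 in CSH71-treated cells, against 637 and 755 in untreated cells. Both treated arrays lay above both untreated arrays, and the gap between the groups was wider than the difference within either. The group means were 1640 ± 38.3 with CSH71 and 696 ± 83.0 without (SD, n = 2 each), a log2 fold change of 1.22 ± 0.18 (SE) with a 95% interval of 0.80 to 1.64. It ranked 13th of 14884 genes by p and 18th by size among higher genes, with a limma adjusted p of 0.275 (unadjusted 0.00024). JOSD1 was already known to be higher from an earlier look at these arrays, so its direction is not independent evidence.

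The JOSD1 log2 fold change lay between 1.10 and 1.34 in all 13 alternative settings tried, and its adjusted p passed 0.05 in 5 of them. It passed with a pseudocount of 64 (0.00148), with array medians set equal (0.00147) and with the dimmest 40% of genes taken out (0.0379). It also passed when the variance prior depended on intensity (5.61e-20) and when replicate number was a block (0.00553). With equal medians, the intensity-dependent prior or the block, limma gave infinite prior degrees of freedom, and the p then ignores how far JOSD1 itself varied. With crossed replicate numbers as the block, added after the data had been seen, JOSD1 did not pass. There 0 of the 64 members passed, at a smallest limma adjusted p of 0.418. Leaving out any 1 array gave adjusted p-values from 0.0841 to 0.911. A group then holds a single array, which is assumed to vary like the other group, so these p-values say little about stability. The value without CSH71 replicate 2, the array that stood apart, was 1.25 ± 0.27.

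**Figure D2:**
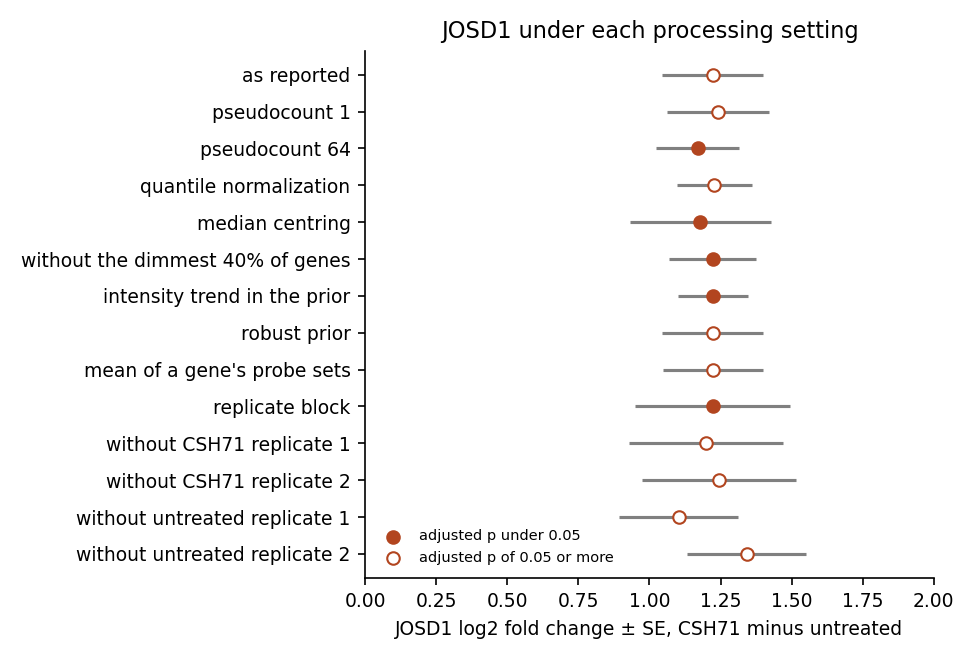
JOSD1 log2 fold change (CSH71 minus untreated, horizontal axis) with its SE under the reported setting and 13 alternatives (rows). Filled points had an adjusted p under 0.05; the estimate stayed between 1.10 and 1.34 throughout, whereas 5 of the 13 alternatives passed.

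The promoter windows of JOSD1 are printed because it was the member with the smallest p, with that of its closest relative JOSD2 for contrast and that of CYLD because it shares a motif with JOSD1. They are RefSeq sequences on GRCh38.p14, each 250 bases before to 50 after an annotated start, 5′ to 3′ on the gene's strand. The motifs were chosen with earlier results of these arrays known, and capitals mark each match. The full cAMP response element was searched as TGACGTCA, its 5-base core site as TGACG and the AP-1 site as TGACTCA, on both strands, and a full element counts as 2 overlapping 5-base core sites. The array's probe set does not show which start was used.
JOSD1, window at the downstream start, chr22:38700894-38701193, minus strand: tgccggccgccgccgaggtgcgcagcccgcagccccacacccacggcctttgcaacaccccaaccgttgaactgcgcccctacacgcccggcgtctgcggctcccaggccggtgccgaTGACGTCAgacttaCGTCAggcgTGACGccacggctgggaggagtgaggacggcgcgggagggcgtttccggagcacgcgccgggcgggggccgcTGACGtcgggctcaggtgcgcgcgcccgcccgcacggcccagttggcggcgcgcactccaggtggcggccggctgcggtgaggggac
JOSD1, window at the upstream start, chr22:38701354-38701653, minus strand: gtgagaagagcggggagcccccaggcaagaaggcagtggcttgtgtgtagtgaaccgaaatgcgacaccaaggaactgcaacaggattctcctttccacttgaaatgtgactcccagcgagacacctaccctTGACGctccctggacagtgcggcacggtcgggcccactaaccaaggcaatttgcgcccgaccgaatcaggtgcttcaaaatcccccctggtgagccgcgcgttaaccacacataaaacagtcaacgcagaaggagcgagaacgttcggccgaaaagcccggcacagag
JOSD2, chr19:50511142-50511441, minus strand: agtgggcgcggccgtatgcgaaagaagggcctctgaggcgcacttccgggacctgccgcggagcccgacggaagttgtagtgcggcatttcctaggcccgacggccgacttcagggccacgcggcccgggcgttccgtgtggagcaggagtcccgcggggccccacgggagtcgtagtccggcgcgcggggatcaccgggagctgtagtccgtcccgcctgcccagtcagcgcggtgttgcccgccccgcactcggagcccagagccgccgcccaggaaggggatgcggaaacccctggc
CYLD, 1 of 3 windows, chr16:50742165-50742464, plus strand: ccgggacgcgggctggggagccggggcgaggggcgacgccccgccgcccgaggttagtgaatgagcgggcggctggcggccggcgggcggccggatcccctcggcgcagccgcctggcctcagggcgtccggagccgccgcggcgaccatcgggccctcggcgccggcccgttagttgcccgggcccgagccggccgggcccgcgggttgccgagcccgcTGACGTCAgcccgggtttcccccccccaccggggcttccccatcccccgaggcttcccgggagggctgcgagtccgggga

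The downstream JOSD1 window held 1 full element, its first base at position -132 relative to the start site, and 5 core sites in all. The upstream window held 1 core site and the JOSD2 window 0. A full element stood in 1.85% of all 35116 windows of this length, and in 2 of 69 member windows, those of JOSD1 and CYLD. At least 3 core sites stood in 1.40% of all windows and in 2 of the 69, those of JOSD1 and UCHL5. A 5-base core site stood in 26 of the member windows (37.7%) against 24.6% of all windows, and the AP-1 site in 0 of the member windows against 4.95%. The windows of all genes were not matched to the members for gene type or base composition. The differences between these shares were not tested. Windows were matched for 47 of the 64 genes. The 22 genes with a 5-base core site had a median log2 fold change of 0.03, from -0.29 to 1.22, and the 25 without had -0.02, from -0.48 to 0.26. The 1.22 is JOSD1 itself, known to be higher when the motifs were chosen, so the upper ends of these ranges are not independent of that choice. Whether the site bears on the response was not tested. These matches describe letters and not bound sites.

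The other 3 Josephin genes had log2 fold changes below 0, of which those of ATXN3 (-0.10 to 0.0488) and ATXN3L (-0.55 to 0.0581) turned sign when 1 array was left out. JOSD2, its closest relative, had intensities of 57.1 and 79.4 in CSH71-treated and 101 and 84.6 in untreated cells. The groups did not overlap, the treated arrays being lower (log2 fold change -0.38 ± 0.20, limma adjusted p = 0.999). The gap between them was smaller than the difference within either group. ATXN3, the protein whose polyglutamine expansion causes Machado-Joseph disease, was at 798 and 860 with CSH71 and 800 and 892 without (-0.03 ± 0.17). Its intronless relative ATXN3L was dim, at 8.56 and 21.4 against 13.7 and 27.4 (-0.24 ± 0.27). For both ATXN3 genes the groups overlapped and the replicates differed from each other as much as the groups did. The family median was -0.14 while its mean was 0.14, since JOSD1 alone of the 4 was positive.

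Of the UCH family, hydrolases that free ubiquitin from small adducts and precursors, 3 genes were measured, and 0 passed. UCHL5, which acts at the proteasome, was at 1576 and 1847 in CSH71-treated and 2049 and 2132 in untreated cells. Its groups did not overlap, and its log2 fold change was -0.29 ± 0.18 (95% interval -0.71 to 0.13). The gap between the groups was smaller than the difference between the CSH71 replicates. UCHL1, an abundant neuronal hydrolase, was at 161 and 208 against 250 and 179 (-0.20 ± 0.22), with overlapping groups. UCHL3, which also processes the precursor of the ubiquitin-like protein NEDD8, was at 811 and 873 against 775 and 909 (0.00 ± 0.18). STAMBP, the endosomal metalloprotease and the single measured JAMM gene that the symbol rule matched, was at 1046 and 1048 with CSH71 and 1112 and 1198 without (-0.14 ± 0.17). Its groups did not overlap, but the gap between them was smaller than the difference between the untreated replicates.

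In the OTU family, the symbol rule matched 8 measured genes and 0 passed, with 4 above and 4 below 0 and a median of -0.01. Other OTU-domain genes, such as YOD1, fall outside the rule and are described with the lists below. OTUD6A had the lowest value of any member, at 30.1 and 42.6 in CSH71-treated and 51.9 and 61.3 in untreated cells (log2 fold change -0.48 ± 0.20, limma adjusted p = 0.964). Its groups did not overlap, by a gap smaller than the difference between its CSH71 replicates, and it is among the dim probe sets. OTUD7B, which restrains NF-κB signalling, was at 236 and 179 with CSH71 and 199 and 233 without (-0.07 ± 0.20). OTUD5, a brake on interferon induction, was at 1187 and 1259 against 1160 and 1278 (0.01 ± 0.17). Both overlapped between groups. OTUD4 was at 1192 and 1097 against 1094 and 1095 (0.06 ± 0.17), which do not overlap by a margin of under 2 intensity units. The remaining 4, OTUD1, OTUD3, OTUD6B and OTUD7A, had overlapping groups and log2 fold changes of 0.12, 0.11, -0.02 and -0.08.

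**Figure D3:**
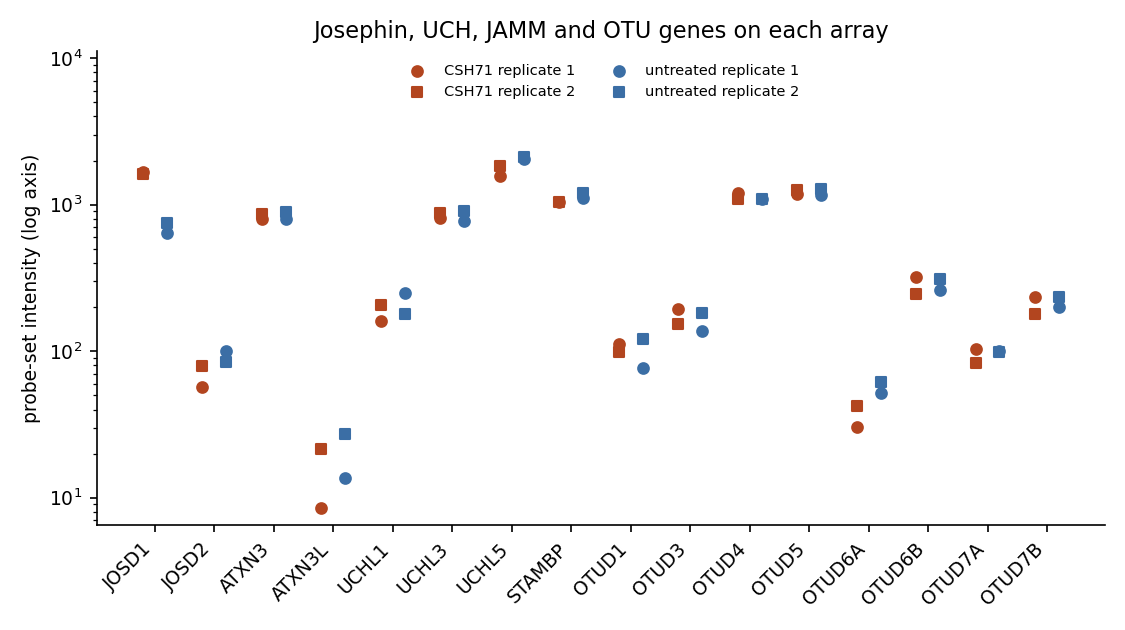
Probe-set intensity (vertical, log axis) of the Josephin, UCH, JAMM and OTU genes on each array, with CSH71 (orange) left of untreated (blue) and replicate 1 as circles and replicate 2 as squares. JOSD1 shows the widest gap between the groups; heights of different genes are different probe sets and are not to be compared.

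In the USP family, 0 of its 48 measured genes passed, at a smallest limma adjusted p of 0.989 and with 0 at an unadjusted p under 0.05. Its median log2 fold change was 0.02, with 26 genes above and 22 below 0. Of the 48, 44 lay within 0.3 of 0, against 12252 of all 14884 genes. Of the 4 outside that range 3 were USP17-like copies and the other was USP2.

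CYLD is a tumour suppressor that removes ubiquitin chains from NF-κB signalling proteins. It was at 2573 and 2374 in CSH71-treated cells, against 1990 and 2143 in untreated cells. Its groups did not overlap, and its log2 fold change was 0.26 ± 0.17 (95% interval -0.14 to 0.66). USP15, which trims chains on several signalling proteins, was at 1023 and 1062 against 879 and 957 (0.18 ± 0.17). USP46, which is activated by the cofactor WDR48, was at 434 and 391 against 326 and 358 (0.26 ± 0.17). USP42 was at 617 and 622 against 506 and 599 (0.17 ± 0.18). In each of these 4 genes both treated arrays were above both untreated arrays, and none passed the test. Of the 4, only CYLD had a gap between the groups wider than the difference within either. Both treated arrays were the higher for 8 of the 48 USP genes, against 15.0% of all genes, and these 4 were named for a small p. The same order held for USP12 (0.11) and USP35 (0.10), which were chosen for mention after their values were seen.

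USP2, a protease linked to the circadian clock, was at 112 and 94.3 with CSH71 and 66.2 and 93.6 without (0.33 ± 0.21), but its second, dimmer probe set gave -0.22. USP50 was at 68.1 and 41.1 against 40.9 and 42.6 (0.26 ± 0.22), a difference carried by CSH71 replicate 1 alone.

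Among the USP genes below 0, USP20 was at 428 and 387 in CSH71-treated and 461 and 543 in untreated cells (-0.29 ± 0.18). USP53 was at 977 and 1032 against 1151 and 1282 (-0.27 ± 0.17). USP24 was at 1086 and 951 against 1128 and 1241 (-0.22 ± 0.18). In these 3 genes the groups did not overlap. In USP20 and USP24 the gap between them was smaller than the difference within either group. Both treated arrays lay below both untreated arrays for 7 of the 48 USP genes, against 16.6% of all genes. USP25 was at 964 and 963 against 1016 and 1137 (-0.16 ± 0.17) and USP51, a histone deubiquitinase, at 32.4 and 38.1 against 44.3 and 48.1 (-0.28 ± 0.17), again without overlap. USP44, known from the spindle checkpoint, had -0.25 ± 0.20 and USP40 had -0.24 ± 0.27, both with overlapping groups.

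USP22, USP1, USP7 and USP34 were, with CYLD, the 5 USP genes with the brightest probe sets. USP22, the deubiquitinase of the SAGA transcription coactivator, was at 3862 and 3587 in CSH71-treated and 3564 and 3680 in untreated cells (0.04 ± 0.17, 95% interval -0.36 to 0.44). USP1, which acts on FANCD2 and PCNA in DNA repair, was at 2386 and 2400 against 2317 and 2546 (-0.02 ± 0.17). USP7, which stabilises MDM2 and p53, was at 2061 and 1887 against 2098 and 2128 (-0.10 ± 0.17), and USP34 at 2001 and 2079 against 1787 and 1982 (0.11 ± 0.17). USP7 was lower and USP34 higher on both treated arrays, and the other pair overlapped. In USP7 the gap between the groups was smaller than the difference between the CSH71 replicates, and in USP34 than that within either group. USP18, which removes the ubiquitin-like protein ISG15, was at 328 and 260 against 269 and 329 (-0.03 ± 0.20). USP4 was at 914 and 740 against 725 and 821 (0.09 ± 0.19).

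**Figure D4:**
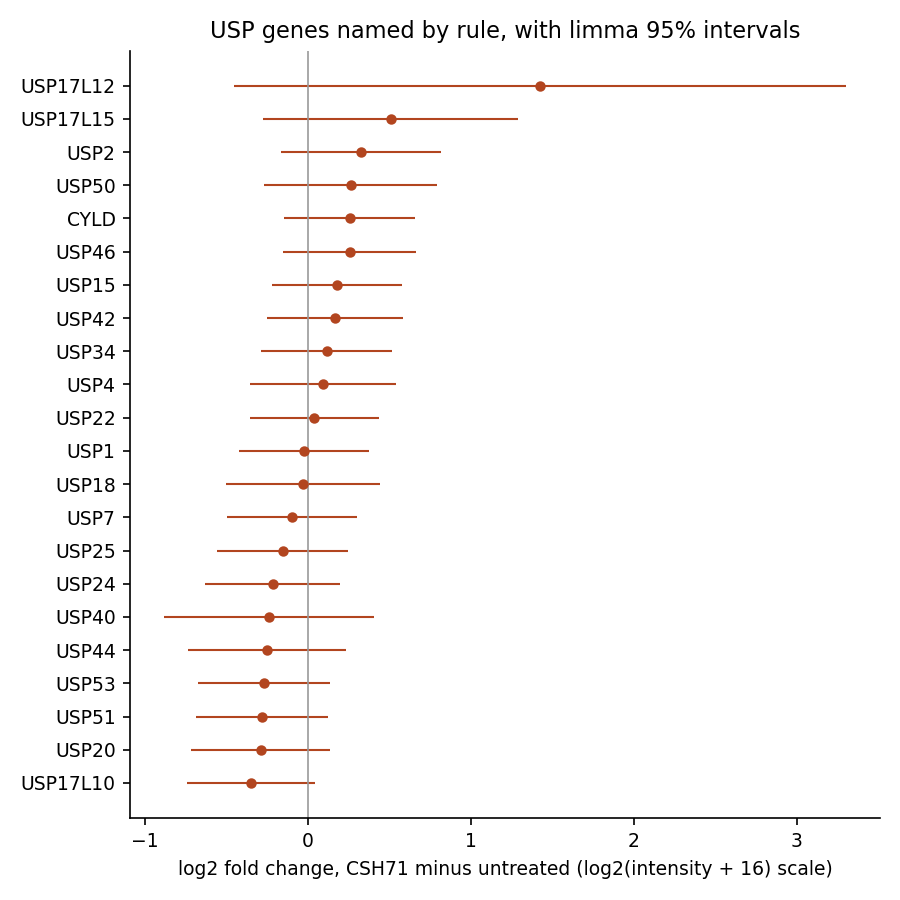
Log2 fold change (CSH71 minus untreated, horizontal axis) with limma's 95% interval for the 22 USP genes named by rule. Every interval includes 0, and that of USP17L12 is by far the widest, from -0.45 to 3.30.

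USP17L10, USP17L12 and USP17L15 belong to a large set of near-identical tandem copies of USP17, a cytokine-inducible deubiquitinase, so signal of one copy cannot be told from another. USP17L12 was at 71.0 and 612 in CSH71-treated cells, against 58.9 and 85.5 in untreated cells. Only CSH71 replicate 2 was high. USP17L12 and USP17L9P are themselves among the 23 genes over 2-fold above the other arrays there. That this array stood apart is therefore not independent of them. The USP17L12 log2 fold change was 1.42 ± 0.79 (95% interval -0.45 to 3.30), which became 2.85 without CSH71 replicate 1 and -0.0021 without CSH71 replicate 2. A probe set of the pseudogene USP17L9P holds exactly the same 4 values. USP17L15 was at 23.8 and 63.1 against 18.4 and 29.2 (0.51 ± 0.33), again highest on CSH71 replicate 2, and 0.01 without that array. USP17L10 was at 12.6 and 13.6 against 20.4 and 21.6 (-0.35 ± 0.17), lower on both treated arrays. It is among the dimmest probe sets, and its log2 fold change was -0.65 with a pseudocount of 1 and -0.14 with 64.

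**Figure D5:**
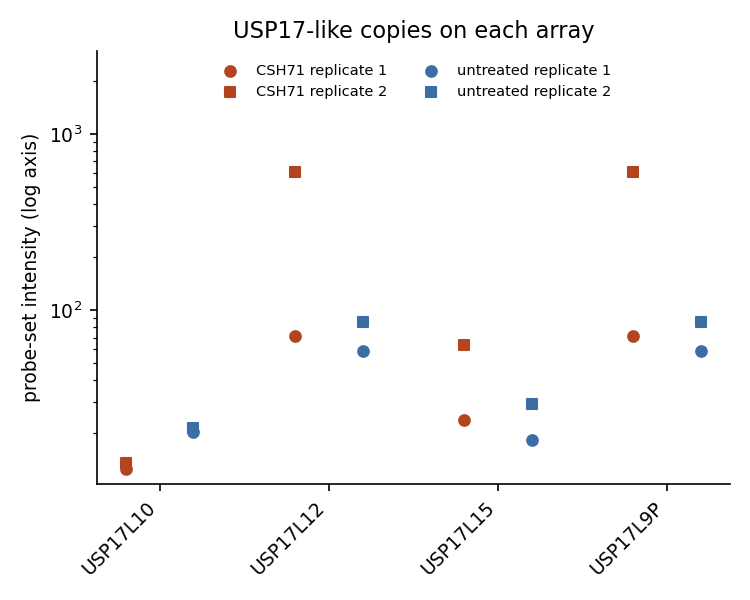
Probe-set intensity (vertical, log axis) of 3 USP17-like genes and the pseudogene USP17L9P on each array, with CSH71 (orange) left of untreated (blue). USP17L12 and USP17L9P share the same values, and their single high point, 612, is CSH71 replicate 2.

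Members, like all genes, differed between groups by about as much as between replicates. The members' median absolute log2 difference was 0.16 between the CSH71 arrays and 0.20 between the untreated arrays, and 0.14 to 0.22 across the pairs of 1 treated and 1 untreated array. Over all genes the same values were 0.19, 0.22 and 0.17 to 0.24. The non-coding and pseudogene members lay between -0.25 (USP30-AS1) and 0.17 (USP32P1) apart from USP17L9P, each with overlapping groups. USP6NL was at 369 and 272 against 280 and 363 (-0.01 ± 0.22).

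Genes that work with the deubiquitinases were taken from lists, and in 7 lists with a measured gene 0 genes passed in either direction. One list held deubiquitinases outside the symbol rule and relatives of them, such as PRPF8, COPS5, COPS6 and PAN2. It was not limited to proteins that act on ubiquitin. Of its 11 measured genes, 7 were above and 4 below 0, with a median of 0.03. YOD1, an OTU-domain enzyme that works with the segregase VCP, had the smallest p, at 346 and 347 in CSH71-treated and 205 and 267 in untreated cells. Both treated arrays were above both untreated ones, with a log2 fold change of 0.53 ± 0.19 (limma adjusted p = 0.927). ALG13 had 0.32 ± 0.17 and MPND, a JAMM-domain protein, -0.21 ± 0.19.

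Of 23 partners of deubiquitinases, 11 were above and 12 below 0, with a median of -0.02. UIMC1, which brings the BRCC3 complex to damaged DNA, had 0.24 ± 0.18, and ASXL1 and ASXL3, partners of BAP1, had 0.22 ± 0.19 and -0.21 ± 0.18. Of 24 conjugating enzymes 12 were above and 12 below 0, with a median of 0.00. UBE2E2 had 0.45 ± 0.20 at 70.3 and 70.6 against 56.9 and 38.8, UBE2G1 had -0.25 ± 0.16 and UBE2R2 had -0.26 ± 0.17. Of 8 activating enzymes SAE1, a subunit of the SUMO E1, had 0.24 ± 0.17 and UBA7, the E1 of ISG15, had -0.14 ± 0.17, and ATG7, an E1-like enzyme of autophagy, had 0.20 ± 0.23. Of 7 SUMO and NEDD8 proteases SENP8, which acts on NEDD8, had -0.31 ± 0.19, SENP6 had 0.20 ± 0.17 and SENP1 had -0.19 ± 0.17. The polyubiquitin gene UBB had -0.01 ± 0.30, and the proteasome list was not analysed here.

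In the list of ubiquitin signalling at the TNF receptor, 20 genes were measured, 12 above and 8 below 0, with a median of 0.03. An unadjusted p under 0.05 was seen for 2 of the 20, against 5.11% of all genes. TNF, the ligand, has 8 probe sets here, of which the brightest was at 705 and 570 in CSH71-treated and 273 and 310 in untreated cells. TRAF1, a receptor adaptor, was at 1177 and 1186 against 634 and 716. Both were higher on both treated arrays, with limma adjusted p-values of 0.515 and 0.742. The study picked TNF on these arrays, so its direction is not independent evidence. MAP3K7, the kinase recruited by these ubiquitin chains, had 0.29 ± 0.18.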

How the data were processed

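RNA of 4 Hut78 samples was measured on 4 arrays. The authors deposited linear intensities, 1 per probe set, for 53617 probe sets. Per the submitters' processing notes they used Affymetrix Expression Console. For its version, summarisation, background correction and normalization: not given in the sources used here. Groups and replicate numbers were read from the sample titles.

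Gene symbols came from the platform annotation, which can be old, and gene types came from RefSeq GRCh38.p14 by gene identifier. Of the probe sets, 16098 had a single symbol and were used, and 37519 had none or several. For genes with several probe sets the brightest was used. The fits used log2(intensity + 16) with no further normalization. Groups were compared with limma 3.58.1 (R 4.3.3), with 2-sided p-values adjusted by the Benjamini-Hochberg method over 14884 genes. The procedure was tested on simulated data with normal noise of the same spread for every gene. The test therefore does not cover spread that differs by gene. Figures were drawn with matplotlib 3.10.9.

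The members, lists and naming rule were chosen with earlier results of these data known. Named were JOSD1, all members of families of at most 8 genes, the 8 higher and 8 lower USP genes with the smallest p, the 5 brightest, 4 regulators of TNF receptor or interferon signalling (CYLD, OTUD7B, USP18 and USP4), and up to 3 genes per list. Lists were described by counts and medians, without a set test. Alternatives were other pseudocounts, quantile normalization, median centring, a filter on dim genes, other variance priors, the mean of probe sets, the replicate block and each array left out. A block with crossed numbers was added after the data had been seen.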

Additional observations from a re-analysis of the deposited data

How the results depend on the processing

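The number of deubiquitinase genes called was 0 as reported and with a pseudocount of 1, quantile normalization, a robust prior and averaged probe sets. It was 1 (JOSD1) with a pseudocount of 64 and without the dimmest 40% of genes, and 2 (JOSD1 and USP17L12) with the replicate block, with median centring and with an intensity trend. With an array left out it was 0 to 1, the 1 being USP17L12 without CSH71 replicate 1. JOSD1 had log2 fold changes of 1.17 with a pseudocount of 64, 1.18 with median centring and 1.22 without dim genes, with the trend and with the replicate block, and passed in these 5. With an array left out it lay between 1.10 and 1.34 and did not pass. With an array left out, a group holds a single array that is assumed to vary like the other group, so calls there, that of USP17L12 included, rest on the spread of the other group alone. The cause of these differences was not tested. Replicate numbers share only a number: the replicate 1 minus 2 differences of the groups correlated at -0.294 over 14884 genes. With crossed replicate numbers as the block, chosen after seeing the data, 0 members were called. The Josephin median was 0.60 without the dimmest genes, where fewer members were tested, and -0.31 to 0.0414 with an array left out. The UCH median was -0.37 to -0.0261 with an array left out. Median centring moved the median of all genes to -0.05 and turned OTUD5 to -0.0389, UCHL3 to -0.0404 and USP22 to -0.00522. Of 38 named genes, 17 changed sign when an array was left out, with these ranges: ATXN3 -0.10 to 0.0488, ATXN3L -0.55 to 0.0581, OTUD1 -0.17 to 0.40, OTUD3 -0.0749 to 0.29, OTUD5 -0.0637 to 0.0747, OTUD6B -0.21 to 0.16, OTUD7A -0.22 to 0.0538, OTUD7B -0.25 to 0.12, UCHL1 -0.42 to 0.0275, UCHL3 -0.11 to 0.12, USP1 -0.089 to 0.0464, USP17L12 -0.0021 to 2.85, USP18 -0.19 to 0.13, USP22 -0.0139 to 0.0923, USP4 -0.0595 to 0.24, USP40 -0.58 to 0.10, USP50 -0.0174 to 0.54. In all, 21 kept their sign throughout. The USP median turned to -0.0228 with median centring and lay between -0.073 and 0.11 with an array left out. The OTU median turned to 0.0055 without the dimmest genes and lay between -0.12 and 0.12 with an array left out. Neither median has a settled direction.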

Other observations

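The members also differed between the replicates of one group. Untreated replicate 2 was above untreated replicate 1 in 58 of the 64 deubiquitinase genes (90.6%), against 57.4% of all genes. Among genes brighter than the median gene, this held for 47 of 48 members (97.9%) and for 75.2% of all genes. Between the CSH71 arrays, replicate 2 was above replicate 1 in 27 of the 64 (42.2%), against 47.0% of all genes. Genes of one array share its RNA and its processing, so these shares are given as a description.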
